A study of Mus musculus with 9 samples.

Results

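The genes of fatty acid uptake and oxidation examined here were 37 named genes, chosen by what their proteins do. All 37 were among the 22609 genes listed in the count tables, and 34 of them passed the filter on low counts. Their levels were compared in tumors that 4T1, a carcinoma line of the mouse mammary gland labelled as triple-negative breast cancer (TNBC), formed in mammary fat pads of the BALB/c strain. The low-fat diet (LFD) group received a diet with 10% of its calories from fat together with vehicle, and the high-fat diet (HFD) group received 60% together with vehicle. The HFD + EC359 group received the 60% diet and EC359, an inhibitor of the leukemia inhibitory factor receptor, at 5 mg/kg by injection on 5 days per week. In each group the 4T1 cells were injected after 6 weeks on the diet, tumors of mice with an intact immune system were sequenced as whole tissue, and 3 tumors gave 1 library each. The labels give no age of the mice, and 4T1 is a single line, so the replicates are tumors of the same cells. The comparison of HFD with LFD asked what the diet changed, and the comparison of HFD + EC359 with HFD asked what the inhibitor changed on that diet.

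Fatty acids enter cells through membrane proteins such as CD36 and the SLC27 transporters, are carried in the cytosol by fatty acid binding proteins, and are made into acyl-CoA by synthetases. The carnitine shuttle brings long-chain acyl-CoA into mitochondria, where repeated rounds of beta-oxidation shorten it and pass electrons to the respiratory chain through electron transfer flavoprotein. Peroxisomes oxidize very long and branched chains. Transcription factors of the PPAR family bind fatty acids and control many of these genes, and in tumors both the cancer cells and the stromal, endothelial and immune cells can express them.

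The library totals ran from 5085268 to 9750959 counts, with the smallest in the LFD group. At these depths 3 counts, the limit that a count of 0 allows, are 0.308 to 0.59 CPM (counts scaled to library size), for counting error only. Of the 37 genes, 8 held fractional counts in at least 1 library (Fabp5, Acsl5, Slc25a20, Crat, Acadvl, Acads, Hadha and Hadhb), from read pairs shared with other positions. Exons of Acsl3 and Cpt1b overlap on the same strand with those of Utp14b and BC090627, so that their counts are less certain. Neither held a fractional count in any library, so how read pairs in the overlap were counted is not visible. LFD replicate 1 stood apart from the other LFD libraries, with a mean chi-square per gene of 3.02 and 2.48 against them, where the other pairs within a group gave 1.36 to 1.57. The libraries also differed in GC content: the mean log2 level of genes with low GC content minus that of genes with high GC content, relative to all libraries, was -0.54 to -0.32 in the LFD libraries, 0.10 to 0.16 in the HFD libraries and 0.25 to 0.30 in the HFD + EC359 libraries. Each change of a single gene below was therefore also computed without LFD replicate 1, and again after the dependence on GC content and length had been taken out of each library ("trend removed"). Krt8 and Krt18, keratins of carcinoma cells, were at 405 to 611 and 287 to 497 CPM. Esr1 ran from 6.34 to 12.7, Pgr from 0 to 1.44 and Erbb2 from 72.8 to 109 CPM. In whole tissue, fewer cells of a type and less RNA per cell cannot be told apart.

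With the high-fat diet, Cd36, which takes up fatty acids at the cell surface, rose 2.38-fold, and Fabp5, a cytosolic fatty acid binding protein, fell to 0.42 of its LFD level. Slc27a1, Slc27a4, Acsl1, Acads, Acaa2, Acaa1a, Etfb and Angptl4 fell by smaller amounts, to between 0.61 and 0.75 of the LFD level. Of the 34 tested genes, 3 (8.82%) were higher at an adjusted p under 0.05 (edgeR's quasi-likelihood test, Benjamini-Hochberg adjustment over 13366 genes), where 26% of the 13366 genes were higher. Another 11 (32.4%) were lower, where 25.8% of the 13366 were lower, so the share of lower genes was near that of all genes. Their median log2 fold change was -0.08, beside 0.01 over all genes tested. Without LFD replicate 1 the counts were again 3 and 11, where 23.3% of all genes tested were higher and 23.9% lower. Markers of carcinoma epithelium, which summed to 1114 to 1136 CPM in LFD and 705 to 714 CPM in HFD, were lower in 4 of the 4 that were tested, and their part in these changes was not tested. At the study's own threshold (more than 2-fold, adjusted p below 0.01), Cd36 and Fabp5 passed, 2 of 34, where 5.69% of the 13366 genes passed.

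With EC359 on the high-fat diet, Fabp5 rose 2.24-fold and Cpt1a, the carnitine palmitoyltransferase at the entry of the mitochondrial pathway, rose 1.38-fold. Pdk4, Etfdh, Pnpla2, Ucp2, Slc27a1, Acadl and Hadha were also higher, which made 9 of 34 (26.5%), where 12.7% of the 13366 genes were higher. None of the 34 was lower, where 13.8% of the 13366 were: edgeR gave 0 at an unadjusted p under 0.05 too, and DESeq2 gave 0 by either measure. The median log2 fold change was 0.10, beside 0.01 over all genes tested. Most of these changes were small, and the number of higher genes was 4 with DESeq2 and 5 without HFD replicate 1, without HFD + EC359 replicate 1 or without HFD + EC359 replicate 3. The shares of all genes tested that were higher were then 8.37%, 9.01%, 10.1% and 9.45%, in that order. The calls that held under all 19 alternatives were those of Fabp5, Cpt1a, Ucp2 and Slc27a1. Fabp5 alone passed the study's threshold, 1 of 34, where 3.46% of the 13366 genes passed. Markers of other cells moved with EC359 as well: those of carcinoma epithelium went from a sum of 705 to 714 CPM to 763 to 791 CPM, with 3 of the 4 tested higher, and 9 of 10 macrophage markers were higher. Their part in these changes was not tested. This comparison and that of HFD with LFD share the 3 HFD libraries, so that opposite directions in them are not independent.

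**Figure D1:**
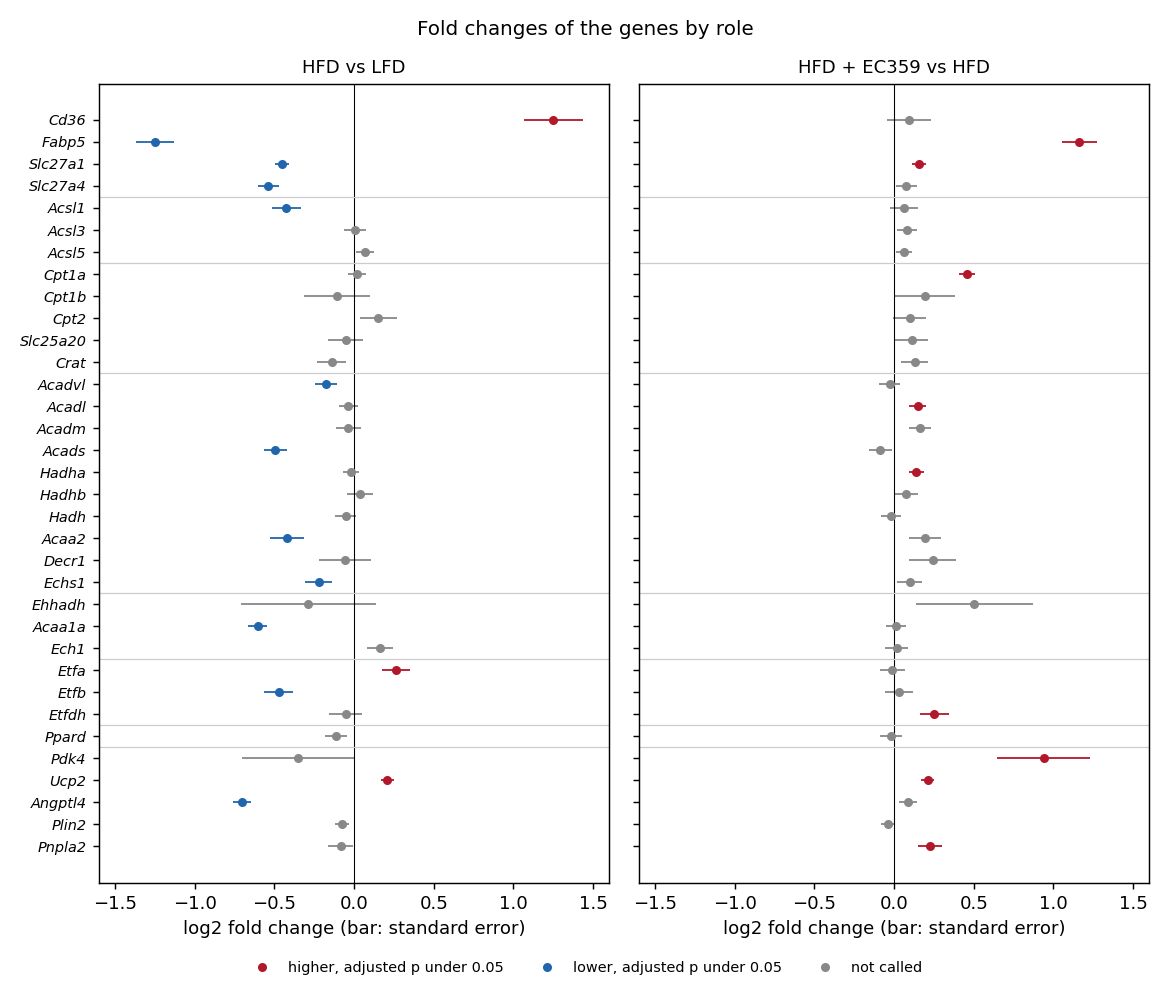
The log2 fold change of each of the 34 tested genes in HFD against LFD (left) and HFD + EC359 against HFD (right) is plotted as a point with its standard error, and lines part the roles. Red and blue points passed an adjusted p of 0.05: 3 higher and 11 lower on the left, 9 higher and 0 lower on the right, with Cd36 at 1.25 and Fabp5 at -1.25 farthest out on the left.

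Among the genes of uptake and binding, Cd36 (chromosome 5, 17287508 to 17394777, minus strand, mm9) was at 3.48, 5.18 and 4.93 CPM in LFD replicates 1 to 3, at 10.2, 11.9 and 10.8 CPM in the HFD libraries, and at 13.3, 10.6 and 11.3 CPM in the HFD + EC359 libraries. Each LFD library lay below each library of the other groups, and the HFD and HFD + EC359 libraries overlapped. The log2 fold change was 1.25 ± 0.19 (SE, adjusted p = 1.09e-06) for HFD against LFD and 0.09 ± 0.14 (adjusted p = 0.675) for HFD + EC359 against HFD. The counts behind these levels were 17 to 113 per library. Without LFD replicate 1, the lowest library, the change with diet was 1.11. With the trend removed it was 0.84 ± 0.19 (adjusted p = 0.000333), under 2-fold. Cd36 has the lowest GC content of the 34 genes, 39.2%.

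Cd36 is also expressed by endothelial cells, adipocytes and macrophages, and their markers moved with the diet. The summed level of 10 endothelial markers was 456 to 492 CPM in LFD, 733 to 760 in HFD and 630 to 655 in HFD + EC359, and all 10 of 10 were higher with HFD than with LFD. With EC359 6 of the 10 were lower, 0 higher and 4 not called. The 12 adipocyte markers summed to 53.8 to 61.2, 78.6 to 82.6 and 76.8 to 84.3 CPM. Of the 8 that were tested, 3 were higher and 1 lower with HFD, while Adipoq and Lep, which define the type, stayed between 0 and 0.785 CPM in each library. The 10 macrophage markers summed to 2059 to 2109, 2198 to 2230 and 2751 to 2771 CPM, with 6 higher and 2 lower with HFD. The part of these cells in the change of Cd36 was not tested.

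Fabp5 (chromosome 3, 10012606 to 10016610, plus strand, mm9) was at 32.7, 45.7 and 47.0 CPM in LFD, at 17.9, 15.1 and 20.3 CPM in HFD, and at 42.5, 37.7 and 39.2 CPM in HFD + EC359. The HFD libraries were the lowest, without overlap with either of the other groups, and the LFD and HFD + EC359 libraries overlapped. Its log2 fold change was -1.25 ± 0.12 (adjusted p = 1.54e-10) with diet and 1.16 ± 0.11 (adjusted p = 5.56e-10) with EC359. HFD + EC359 against LFD gave -0.09 ± 0.10 (adjusted p = 0.48). That last value depended on the processing: it was -0.45 ± 0.09 (adjusted p = 0.000127) with the trend removed, whereas the changes with diet and with EC359 were then -1.46 and 1.01. Fabp5 is known as the epidermal member of its family. The 11 epidermal markers listed in the files summed to 230 to 240 CPM in LFD, 141 to 150 in HFD and 215 to 222 in HFD + EC359. With HFD 7 of the 11 were lower and 2 higher, and with EC359 9 of the 11 were higher and 0 lower. Markers of carcinoma epithelium summed to 1114 to 1136 CPM in LFD, 705 to 714 in HFD and 763 to 791 in HFD + EC359. Of the 4 that were tested, 4 were lower with HFD and 3 higher with EC359. The part of epidermal or carcinoma cells in the change of Fabp5 was not tested.

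Slc27a1 encodes a fatty acid transport protein with acyl-CoA synthetase activity and had the highest level per length of the uptake genes, 69.2 RPKM (CPM per kilobase of exon) over the 9 libraries. It was at 233, 221 and 231 CPM in LFD, at 166.7, 165.6 and 167.4 CPM in HFD, and at 179, 192 and 186 CPM in HFD + EC359. The 3 groups did not overlap, with LFD the highest and HFD the lowest. The log2 fold change was -0.45 ± 0.04 (adjusted p = 1.7e-10) with diet and 0.16 ± 0.04 (adjusted p = 0.00514) with EC359, and with the trend removed these were -0.20 ± 0.04 and 0.22 ± 0.04, each past the threshold. Slc27a4, a relative of the same family, was at 70.8, 73.5 and 71.9 CPM in LFD, at 51.0, 49.4 and 48.5 CPM in HFD, and at 54.1, 50.7 and 52.5 CPM in HFD + EC359. All LFD libraries lay above the others, with log2 fold changes of -0.54 ± 0.07 (adjusted p = 3.22e-08) with diet and 0.08 ± 0.06 (adjusted p = 0.413) with EC359. Fabp3, the heart and muscle binding protein, had 0 counts in each LFD library, which allows up to 0.461 to 0.59 CPM, and 0 to 3 counts in the others, and was not tested.

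**Figure D2:**
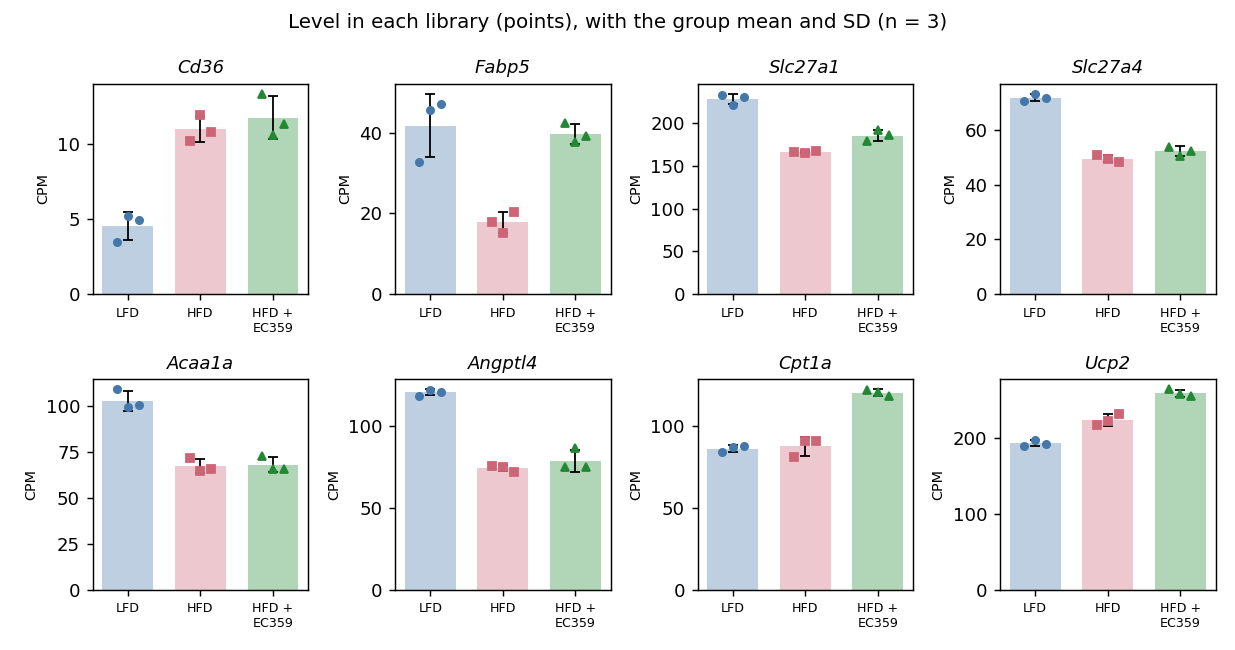
Normalised levels in CPM (vertical axes, from 0) are shown for 8 genes in each library (points), with the mean (bar) and SD (error bar, n = 3) of LFD, HFD and HFD + EC359. Cd36 is low only in LFD, Fabp5 only in HFD, and Cpt1a is high only in HFD + EC359, at 118 to 122 CPM.

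Acyl-CoA activation was covered by 3 genes. The synthetases Acsl1, Acsl3 and Acsl5 attach coenzyme A to long-chain fatty acids. Acsl1 fell with diet, from 35.4 to 39.7 CPM in LFD to 26.2 to 30.0 CPM in HFD, without overlap (log2 fold change -0.42 ± 0.09, adjusted p = 0.000199), and was at 28.9 to 30.6 CPM with EC359. Acsl5, the most abundant of them per length at 31.0 RPKM, was at 90.8, 92.6 and 95.7 CPM in LFD, at 98.5, 92.7 and 102 CPM in HFD, and at 98.0, 101.8 and 105.8 CPM in HFD + EC359, with HFD overlapping both other groups and LFD below HFD + EC359. Acsl3 gave a log2 fold change of 0.00 ± 0.07 with diet as deposited and -0.27 ± 0.07 (adjusted p = 0.00232) with the trend removed. No synthetase passed the threshold with EC359, by edgeR or DESeq2 or at an unadjusted p under 0.05 (0 of 3, with log2 fold changes of 0.06 to 0.08). Of the 13366 genes 12.7% were higher and 13.8% lower with EC359 by edgeR.

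The next step is the carnitine shuttle, in which Cpt1a makes acylcarnitine at the outer mitochondrial membrane, Slc25a20 carries it across the inner membrane, Cpt2 turns it back into acyl-CoA, and Crat acts on short chains. Cpt1a (chromosome 19, 3323301 to 3385733, plus strand, mm9) was at 83.9, 87.0 and 87.8 CPM in LFD, at 81.0, 90.7 and 90.8 CPM in HFD, and at 121.9, 121.0 and 118.1 CPM in HFD + EC359. The 3 libraries with EC359 were above all others, and the LFD and HFD libraries overlapped. In log2 terms the fold change was 0.46 ± 0.05 (adjusted p = 9.82e-09) with EC359 and 0.02 ± 0.06 (adjusted p = 0.809) with diet. Removal of the trend left the value with EC359 at 0.45 ± 0.05, and it ran from 0.40 to 0.49 over the 19 alternatives. Cpt1b, Cpt2, Slc25a20 and Crat did not pass with EC359, with log2 fold changes of 0.10 to 0.20. With diet 0 of the 5 passed in either direction, where 26% of the 13366 genes were higher and 25.8% lower. The number was also 0 with DESeq2 and at an unadjusted p under 0.05. Markers of macrophages also moved with EC359: 9 of the 10 were higher and 0 lower, and Lyz2 went from 570 to 592 CPM in HFD to 737 to 748 CPM in HFD + EC359. The fibroblast markers summed to 10330 to 10960 CPM in HFD and 3213 to 3281 CPM in HFD + EC359, with 3 of 6 lower and 1 higher. The part of either cell type in the change of Cpt1a was not tested.

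The steps of each round of mitochondrial beta-oxidation are carried out by acyl-CoA dehydrogenases of differing chain length (Acadvl, Acadl, Acadm and Acads), hydratases (Echs1 and the trifunctional protein), 3-hydroxyacyl-CoA dehydrogenases (Hadh and the trifunctional protein) and thiolases (Acaa2 and the trifunctional protein), with Decr1 for unsaturated chains. With diet 4 of the 10 were lower and 0 higher, where 25.8% and 26% of the 13366 genes were. DESeq2 gave 2 lower and 0 higher, and edgeR gave 0 higher at an unadjusted p under 0.05 too. Acads, for short chains, fell from 68.5 to 84.3 CPM in LFD to 51.1 to 54.4 CPM in HFD, without overlap (log2 fold change -0.49 ± 0.07, adjusted p = 1.28e-06). Acaa2, the thiolase of medium and short chains, fell from 27.8 to 30.1 CPM to 19.5 to 22.6 CPM, without overlap (-0.42 ± 0.11, adjusted p = 0.0012). With the trend removed the value for Acads was -0.22 ± 0.07 (adjusted p = 0.00744) and that for Acaa2 -0.34 ± 0.11 (adjusted p = 0.00892). Echs1 (-0.22 ± 0.08, adjusted p = 0.0284) and Acadvl (-0.18 ± 0.07, adjusted p = 0.0333) were lower by little, and their calls held under 13 and 9 of the 19 alternatives. Acadvl had a log2 fold change of -0.05 with the trend removed.

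Acadl, the long-chain dehydrogenase, had the highest level per length of this group at 42.1 RPKM. It was at 73.9, 78.3 and 81.9 CPM in LFD, at 74.0, 75.6 and 79.2 CPM in HFD, and at 84.7, 82.8 and 86.1 CPM in HFD + EC359. The libraries with EC359 lay above the others, which overlapped among themselves. With EC359 Acadl (log2 fold change 0.15 ± 0.05, adjusted p = 0.037) and Hadha (0.14 ± 0.05, adjusted p = 0.0258) were higher, 2 of 10, where 12.7% of the 13366 genes were. None of the 10 was lower, where 13.8% of the 13366 were. DESeq2 gave 0 in either direction, and at an unadjusted p under 0.05 edgeR gave 3 higher and 0 lower. Neither call held throughout: Acadl passed under 11 and Hadha under 12 of the 19 alternatives, and neither with DESeq2. Acadm, for medium chains, had 0.16 ± 0.07 (adjusted p = 0.0955) and Decr1 0.24 ± 0.15 (adjusted p = 0.238). Hadh, Acadvl and Acads had values of -0.02, -0.03 and -0.09.

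Hadha and Hadhb encode the alpha and beta subunits of the mitochondrial trifunctional protein. Their RPKM ratio was 1.38 in LFD, 1.32 in HFD and 1.38 in HFD + EC359. Their start sites lie 272 bases apart and point away from each other in RefSeq on GRCm38.p6, so that a single stretch lies upstream of both. With EC359 the log2 fold change of Hadhb was 0.07 ± 0.07 (adjusted p = 0.509), beside 0.14 for Hadha, and with diet they had 0.04 and -0.02. Hadhb was at 37.6 to 43.0 CPM in LFD, 41.4 to 43.9 in HFD and 43.4 to 46.2 in HFD + EC359, so that HFD overlapped both other groups and LFD lay below HFD + EC359.

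In peroxisomal oxidation, Acaa1a, the peroxisomal thiolase, was at 108.8, 99.1 and 100.1 CPM in LFD, at 71.6, 64.7 and 65.4 CPM in HFD, and at 72.8, 65.6 and 65.7 CPM in HFD + EC359. The LFD libraries were above all others, and the HFD and HFD + EC359 libraries overlapped. The log2 fold change was -0.61 ± 0.06 (adjusted p = 7.1e-10) with diet and 0.01 ± 0.06 (adjusted p = 0.908) with EC359, and with the trend removed the value with diet was -0.34 ± 0.06 (adjusted p = 8.1e-06). Ech1, an isomerase for unsaturated chains that was listed with the peroxisomal genes, had 0.16 ± 0.08 (adjusted p = 0.085) with diet, and 0.29 ± 0.08 (adjusted p = 0.00286) with the trend removed. Ehhadh, the bifunctional enzyme, had 8 to 25 counts per library and log2 fold changes of -0.29 ± 0.42 and 0.50 ± 0.37, within their error. None of the 3 passed with EC359 by edgeR or DESeq2, or at an unadjusted p under 0.05 (0 of 3). By edgeR 12.7% of the 13366 genes were higher and 13.8% lower with EC359.

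For electron transfer, Etfa and Etfb encode the subunits of electron transfer flavoprotein and Etfdh the enzyme that passes its electrons to ubiquinone. Etfb was at 50.9, 42.7 and 47.8 CPM in LFD, at 31.2, 35.9 and 34.5 CPM in HFD, and at 34.5, 31.6 and 37.2 CPM in HFD + EC359, with all LFD libraries above the others. Etfa, by contrast, was lowest in LFD, at 30.3 to 34.2 CPM, beside 37.5 to 42.0 CPM in HFD and 38.4 to 40.8 CPM in HFD + EC359. The log2 fold changes with diet were -0.47 ± 0.09 (adjusted p = 4.91e-05) for Etfb and 0.26 ± 0.09 (adjusted p = 0.0117) for Etfa. The exons of the 2 subunits differ in GC content, 56.9% for Etfb and 44.3% for Etfa. With the trend removed Etfb was at -0.26 ± 0.09 (adjusted p = 0.0153) and Etfa at 0.06 ± 0.09 (adjusted p = 0.628), so the call for Etfa was lost. Etfdh was higher with EC359 (0.25 ± 0.09, adjusted p = 0.0404), which was lost with DESeq2 and with the trend removed and held under 10 of the 19 alternatives.

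Of the PPAR regulators among the 37 genes, only Ppard, which encodes PPAR delta, reached a level that could be tested, at 20.0 RPKM. It was at 76.7, 67.3 and 60.8 CPM in LFD, at 60.7, 64.8 and 63.1 CPM in HFD, and at 62.4, 63.6 and 60.2 CPM in HFD + EC359, and the groups overlapped, with LFD replicate 1 the highest library. Its log2 fold changes were -0.11 ± 0.07 (adjusted p = 0.179) with diet and -0.02 ± 0.07 (adjusted p = 0.87) with EC359. Ppara, which encodes PPAR alpha, had 0 to 9 counts per library and Ppargc1a, its coactivator, 0 to 1, and neither was tested. Pparg, outside the 37 genes, was tested among the further PPAR regulators and targets below.

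Of the PPAR-responsive and lipid droplet genes, Angptl4, a secreted inhibitor of lipoprotein lipase, was at 119, 122 and 121 CPM in LFD, at 75.5, 74.9 and 72.1 CPM in HFD, and at 74.8, 86.4 and 75.3 CPM in HFD + EC359. The LFD libraries were above all others, and the log2 fold change was -0.70 ± 0.06 (adjusted p = 5.62e-12) with diet and 0.09 ± 0.06 (adjusted p = 0.284) with EC359. Removal of the trend gave -0.51 ± 0.06 (adjusted p = 1.01e-09) with diet. Ucp2, a carrier of the inner mitochondrial membrane, rose in both comparisons, from 190 to 198 CPM in LFD to 217 to 232 CPM in HFD and 255 to 264 CPM in HFD + EC359. The 3 groups of Ucp2 did not overlap, with log2 fold changes of 0.21 ± 0.04 (adjusted p = 0.000107) and 0.21 ± 0.04 (adjusted p = 0.000106), and both calls held under all 19 alternatives.

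Pdk4, a kinase that turns off pyruvate dehydrogenase, was at 2.46, 1.88 and 1.76 CPM in LFD, at 1.64, 1.31 and 1.77 CPM in HFD, and at 3.28, 3.38 and 2.50 CPM in HFD + EC359. The libraries with EC359 were above all others, on 10 to 30 counts per library. The log2 fold change with EC359 was 0.94 ± 0.29 (adjusted p = 0.0152), and with diet it was -0.35 ± 0.35 (adjusted p = 0.42). The call with EC359 was lost without HFD replicate 2 (0.82, adjusted p = 0.0763), without HFD + EC359 replicate 1 (0.89, adjusted p = 0.0546), without HFD + EC359 replicate 2 (0.85, adjusted p = 0.066) and with DESeq2. Pnpla2, the first lipase of stored triglyceride, had 0.22 ± 0.07 (adjusted p = 0.0226) with EC359, which held under 13 of the 19 alternatives. Plin2, a coat protein of lipid droplets and the most abundant of the 37 genes per length at 89.9 RPKM, was at 178.6, 175.2 and 177.5 CPM in LFD, at 166.8, 169.1 and 167.9 CPM in HFD, and at 164.4, 166.1 and 160.5 CPM in HFD + EC359. The LFD, HFD and HFD + EC359 libraries of Plin2 did not overlap, yet the differences were small, with log2 fold changes of -0.08 ± 0.04 (adjusted p = 0.138) and -0.04 ± 0.04 (adjusted p = 0.551).

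Measured against LFD, the HFD + EC359 tumors kept several of the differences that the HFD tumors had, in a comparison that shares the LFD libraries with HFD against LFD and the HFD + EC359 libraries with HFD + EC359 against HFD. Of the 34 tested genes 7 (20.6%) were higher, where 29.2% of the 13366 genes were, and 9 (26.5%) were lower, where 29.1% of the 13366 were. At the study's threshold 1 of 34 passed, Cd36, where 5.09% of the 13366 genes passed. Cd36 had a log2 fold change of 1.34 ± 0.18 (adjusted p = 1.02e-07), which was 0.78 ± 0.18 (adjusted p = 0.000416) with the trend removed. Angptl4 (-0.62 ± 0.06), Acaa1a (-0.59 ± 0.06), Acads (-0.58 ± 0.07) and Slc27a4 (-0.46 ± 0.06) were lower by amounts near those of HFD against LFD, and Cpt1a (0.48 ± 0.05, adjusted p = 2.79e-09) was higher. Slc27a1, at -0.30 ± 0.04 (adjusted p = 2.93e-07), was at 0.02 ± 0.04 (adjusted p = 0.645) with the trend removed, and Etfa, at 0.25 (adjusted p = 0.0114), was at -0.07 (adjusted p = 0.508). The number of higher genes moved most with the processing, to 4 with DESeq2 and to 14 with library totals alone. Of the 13366 genes 25.1% and 35% were then higher.

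**Figure D3:**
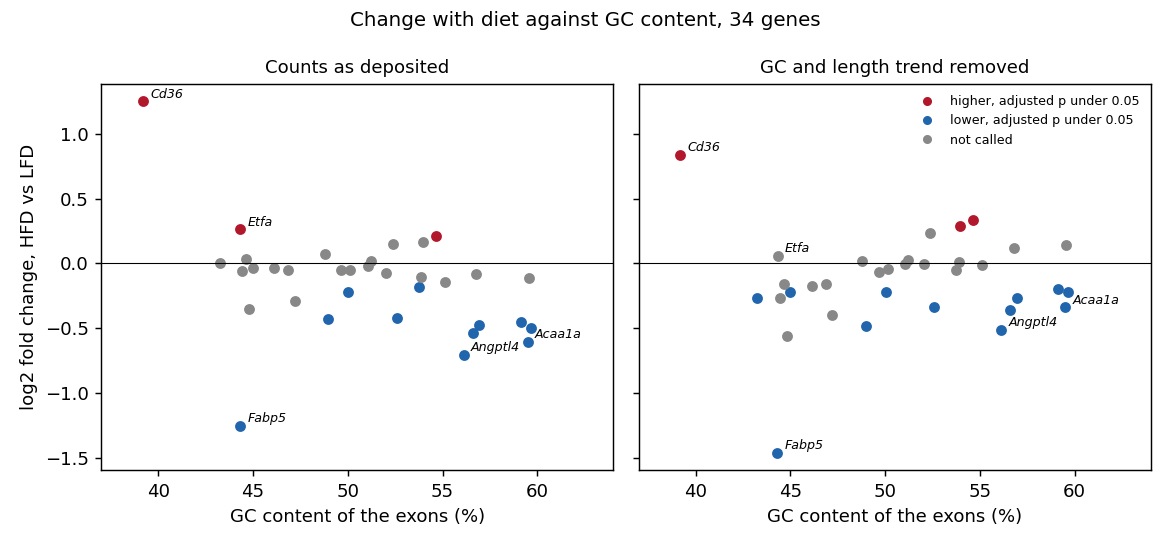
The log2 fold change of HFD against LFD (vertical axes) is plotted against the GC content of the exons in percent (horizontal axes) for the 34 tested genes, as deposited (left) and with the trend removed (right). As deposited, Cd36 at 39.2% GC is farthest up and the lower genes other than Fabp5 lie at 49.0% GC or above, and on the right Etfa moves from 0.26 to 0.06 while Fabp5 stays lowest, at -1.46.

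Across the 34 genes the log2 fold change with diet and the GC content had a Pearson r of -0.395 and a Spearman rho of -0.443, beside an r of -0.329 over the 13366 genes. For HFD + EC359 against HFD the r was -0.366 over the 34 genes and -0.127 over the 13366. These are descriptions across genes of the same libraries, which are not independent. With the trend removed 3 of the 34 were higher with diet, 2 of them (Cd36 and Ucp2) also higher as deposited, and 12 were lower, 10 of them also lower as deposited. Of the 13366 genes 20.1% were then higher and 22.7% lower. With EC359 7 were higher, where 10.3% of the 13366 genes were, all 7 among the 9 above, and Acadl and Etfdh were lost.

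Related genes outside the 37 were read in the same way, and the counts of each list stand beside the same shares of all 13366 genes (26% higher and 25.8% lower with diet, 12.7% and 13.8% with EC359). Of 14 further genes of uptake and activation, 7 could be tested, and 3 were higher and 3 lower with diet. Fabp4, the binding protein of adipocytes, endothelial cells and macrophages, rose from 4.91 to 7.38 CPM in LFD to 18.7 to 21.4 CPM in HFD (log2 fold change 1.66 ± 0.15, adjusted p = 5.66e-11), and Lpl, the lipase that frees fatty acids from lipoproteins, rose from 8.80 to 9.58 CPM to 18.4 to 20.6 CPM (1.05 ± 0.13, adjusted p = 6.45e-08). Acsbg1, an acyl-CoA synthetase, fell from 12.2 to 13.9 CPM to 4.09 to 5.17 CPM (-1.50 ± 0.18, adjusted p = 2.48e-08). With EC359 Lpl was lower (-0.64 ± 0.11, adjusted p = 4.8e-05), at 11.1 to 13.7 CPM, and Fabp4 had -0.04 ± 0.11.

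Of 23 tested further enzymes and transporters of oxidation, 1 was higher and 5 lower with diet, and 8 were higher and 0 lower with EC359. DESeq2 gave 1 higher and 2 lower with diet and 2 higher and 0 lower with EC359, and edgeR gave 0 lower with EC359 at an unadjusted p under 0.05. With EC359 the larger changes in that list were those of Amacr (0.71 ± 0.24, adjusted p = 0.0282), a racemase for branched chains, Pecr (0.50 ± 0.16, adjusted p = 0.0209) and Hacl1 (0.49 ± 0.17, adjusted p = 0.0344), both peroxisomal, and their calls held under 13, 12 and 12 of the 19 alternatives, DESeq2 not among them. Abcd2, a peroxisomal fatty acid transporter, was the gene that rose with diet, from 0.409 to 1.41 CPM to 3.95 to 4.16 CPM (1.92 ± 0.34, adjusted p = 1.96e-05). Its lowest LFD level was below the 0.461 to 0.59 CPM that 3 counts make in the LFD libraries, so this fold change rests on few counts. Among 11 tested lipid droplet and lipolysis genes 1 was higher and 5 lower with diet, led by Plin4 (-1.18 ± 0.17, adjusted p = 7.18e-07), G0s2 (-0.89 ± 0.15, adjusted p = 6.57e-06) and Mgll (-0.77 ± 0.10, adjusted p = 1.15e-07), and with EC359 1 was higher and 1 lower. Among 12 tested further PPAR regulators and targets 1 was higher and 6 lower with diet, led by Esrra (-0.67 ± 0.07, adjusted p = 1.81e-09), a nuclear receptor of mitochondrial genes, which was at -0.37 with the trend removed. With EC359 2 of these 12 were higher and 1 lower, and Lpin1 rose most (0.42 ± 0.07, adjusted p = 7.59e-06). The 10 hypoxia genes, of a response that also includes Angptl4, gave 2 higher and 3 lower with diet and 1 higher and 4 lower with EC359. The calls of the related genes named here with diet, and those of Lpl and Lpin1 with EC359, held under each alternative that could be computed.

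Promoter windows of RefSeq on GRCm38.p6, 300 bases from 250 before to 50 after the start, were given for 31 of the 37 genes. The PPAR response element was searched as AGGNCA, any base, AGGNCA on either strand. It was found for 0 of the 31 genes and in 0.381% of all 32851 windows. The single hexamer AGGTCA, on either strand, was found for 6 of the 31 genes (19.4%: Cd36, Cpt1a, Acadvl, Acadm, Echs1 and Plin2) and in 16.3% of all windows. A gene counted if any of its windows held the match, whereas all windows were counted singly, so these shares differ in unit. A match is a run of letters and not a bound site, and elements outside these windows were not searched. The 250 bases before the start are shown 5′ to 3′ on each gene's strand for Cd36 (chr5:17835897-17836146, minus strand) and Cpt1a (chr19:3323051-3323300, plus strand), which carry the hexamer and the largest increases with diet and with EC359 among the windows that hold it, and for Hadha (chr5:30154981-30155230, minus strand), whose stretch also lies upstream of Hadhb. Capitals mark AGGTCA read on the opposite strand, which begins 228 bases before the start used for Cd36 and 94 bases before that used for Cpt1a. The Hadha window holds none. Whether the start used for Cd36 is the outer end of its mm9 span given above was not tested.
Cd36: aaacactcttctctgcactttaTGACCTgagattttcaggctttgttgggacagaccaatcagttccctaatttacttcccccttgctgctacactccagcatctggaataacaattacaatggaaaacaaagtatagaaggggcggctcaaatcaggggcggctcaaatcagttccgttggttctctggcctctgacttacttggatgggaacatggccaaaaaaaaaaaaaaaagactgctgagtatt
Cpt1a: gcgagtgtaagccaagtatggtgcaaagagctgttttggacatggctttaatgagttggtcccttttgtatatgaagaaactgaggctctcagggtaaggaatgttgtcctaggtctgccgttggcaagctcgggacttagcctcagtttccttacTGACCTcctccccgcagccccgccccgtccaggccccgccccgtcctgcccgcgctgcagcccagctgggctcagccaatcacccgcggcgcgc
Hadha: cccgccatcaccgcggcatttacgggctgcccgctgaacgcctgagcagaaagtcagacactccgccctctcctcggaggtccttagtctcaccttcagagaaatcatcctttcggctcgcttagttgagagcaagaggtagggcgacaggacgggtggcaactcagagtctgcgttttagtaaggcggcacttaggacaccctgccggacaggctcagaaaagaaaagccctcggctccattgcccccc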

How the data were processed

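RNA-seq was performed on 9 4T1 tumors (LFD, HFD and HFD + EC359, 3 libraries each, stranded mRNA, paired ends). The deposited files hold expected counts of read pairs per gene for each library, not normalized, which the authors made with featureCounts 1.5.0-p1 on mm9 genes per the file headers. Read pairs with a mapping quality of at least 2 were counted on the reverse strand, and those at several positions were split into fractions. How read pairs over several genes were counted is not visible, since Acsl3 and Cpt1b held no fractional count. The submitters' processing notes name HISAT2 2.1.0, whereas the paper's methods name TopHat2 and HTSeq. Between 1.19% and 3.55% of genes had a fractional value in a library.

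The counts were rounded to whole numbers and analysed in R 4.3.3 with edgeR 4.0.16. After filterByExpr by group (13366 of 22609 genes left) and TMM scaling, a single quasi-likelihood model of the 3 groups gave each comparison, with Benjamini-Hochberg adjustment over all tested genes. Calls were made at an adjusted p under 0.05 at any fold change, and also at the threshold in the study's methods. CPM values are scaled by library total and TMM factor, and RPKM divides CPM by the exon length. Fitted log2 fold changes use edgeR's default prior count. A prior count of 2 entered only the log2 levels behind the GC differences between libraries and the GC and length trend. GC content came from the mm9 exon sequences, and its trend, with that of length, was removed as a spline with 5 degrees of freedom per library. The steps were tested on simulated counts with fold changes planted in HFD. Those counts held no GC or length trend, so how well such a trend is removed was not tested. P-values measure the spread between these libraries, whose common coefficient of variation within groups, beyond counting error, was 3.63%. Whether that small spread covers the variation between mice was not tested. The alternatives were DESeq2 1.42.0, RLE factors, library totals, other count filters, the 6 libraries of a comparison alone, a replicate block, GC and length trend removal, counts thinned to the smallest total, and each library left out.

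The genes and lists were chosen with earlier results of these data known. Values per library are given for genes called with a log2 fold change of at least 0.5 in size in HFD against LFD or HFD + EC359 against HFD, and for the gene with the highest RPKM of each role. Other genes with ranges, the AGGTCA search and the promoters shown were chosen after their values were seen.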

Additional observations from a re-analysis of the deposited data

How the results depend on the processing

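For calls of the 34 genes in the 3 comparisons, 340 values stayed past the threshold in their direction, 46 fell short of it and 4 changed sign under the 10 alternatives with all libraries, and 301 stayed, 50 fell short and 0 changed sign with 1 library left out. The 4 were those of Slc27a1 and Etfa in HFD + EC359 against LFD with the GC and length trend removed, with and without the replicate block. For the calls of related genes named in the text, 121 stayed, 8 fell short and 0 changed sign with all libraries, and 105 stayed, 12 fell short and 0 changed sign with 1 left out. The cause of the changes below was not tested. For HFD + EC359 against HFD, the number of higher genes (9) was 4 with DESeq2 and 5 to 9 with 1 library left out, with 5 without HFD replicate 1, without HFD + EC359 replicate 1 and without HFD + EC359 replicate 3. The shares of all genes tested were then 8.37%, 9.01%, 10.1% and 9.45%. For HFD + EC359 against LFD the number of higher genes (7) was 4 with DESeq2, 14 with library totals and 4 to 7 with 1 library left out, with 4 without LFD replicate 3, without HFD replicate 1 and without HFD + EC359 replicate 2. There the shares of all genes tested were 25.1%, 35%, 26.8%, 28.1% and 27%. At the study's threshold, the higher gene with diet and in HFD + EC359 against LFD (1 in each) became 0 with the GC and length trend removed, and 0 with the replicate block and that trend removed. Same-numbered libraries of different groups did not deviate together (correlations of -0.03 to 0.02), and the replicate block by itself gave 3 higher and 11 lower genes with diet and 9 higher and 0 lower with EC359.

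The log2 fold changes that changed sign follow, and apart from those 4 they were of genes not called as deposited. RLE factors gave Acsl3 -0.00023 with diet, and DESeq2 gave Acsl3 -0.0016 with diet. Removal of the GC and length trend gave Acsl3 -0.27, Cpt1b 0.010, Hadhb -0.15, Ppard 0.14 and Pnpla2 0.12 with diet, and Cd36 -0.052, Acsl3 -0.0016, Hadhb -0.014, Ech1 -0.056, Etfb -0.017 and Ppard 0.054 with EC359, and Slc27a1 0.024, Acsl3 -0.27, Crat 0.14, Acadl -0.15, Acadm -0.086, Hadhb -0.17, Decr1 -0.10, Etfa -0.074 and Ppard 0.19 in HFD + EC359 against LFD. The replicate block together with that removal gave Acsl3 -0.27, Cpt1b 0.021, Hadhb -0.15, Ppard 0.14 and Pnpla2 0.12 with diet, and Cd36 -0.050, Hadhb -0.015, Ech1 -0.055, Etfb -0.021 and Ppard 0.056 with EC359, and Slc27a1 0.024, Acsl3 -0.27, Crat 0.15, Acadl -0.16, Acadm -0.087, Hadhb -0.17, Decr1 -0.11, Etfa -0.072 and Ppard 0.20 in HFD + EC359 against LFD. Library totals gave Acadl 0.0057, Acadm 0.0066 and Hadha 0.022 with diet, and Acadvl 0.0058, Hadh 0.011, Etfa 0.023 and Ppard 0.013 with EC359, and Crat 0.063 and Hadh 0.00034 in HFD + EC359 against LFD. Thinned counts gave Acsl3 -0.018 and Acadm 0.029 with diet, and Hadh 0.029, Acaa1a -0.035, Ppard 0.0039 and Fabp4 0.012 with EC359. With 1 library left out, the ranges with diet were -0.064 to 0.046 for Acsl3, -0.012 to 0.070 for Cpt1a, -0.29 to 0.11 for Cpt1b, -0.15 to 0.017 for Slc25a20, -0.11 to 0.031 for Acadm, -0.018 to 0.067 for Hadhb and -0.20 to 0.024 for Decr1. With EC359 they were -0.0035 to 0.17 for Cpt2, -0.051 to 0.0059 for Hadh, -0.036 to 0.057 for Acaa1a, -0.0071 to 0.045 for Ech1, -0.049 to 0.037 for Etfa, -0.040 to 0.086 for Etfb, -0.049 to 0.0034 for Ppard and -0.12 to 0.011 for Fabp4. In HFD + EC359 against LFD they were -0.098 to 0.30 for Cpt1b, -0.036 to 0.13 for Slc25a20, -0.078 to 0.088 for Crat and -0.21 to 0.45 for Ehhadh. Past the threshold in the new direction were Acsl3 with diet (adjusted p = 0.00232) and, in HFD + EC359 against LFD, Acsl3 (adjusted p = 0.00136), Acadl (adjusted p = 0.017) and Ppard (adjusted p = 0.0118), each with the GC and length trend removed. At these depths the standard errors were largest for Ehhadh, Pdk4, Cpt1b and Cd36 in HFD against LFD, and Fabp3, Ppara and Ppargc1a could not be tested.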
